A study of Mus musculus with 48 samples.

Results

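Macrophages that lacked only the LynB form of the Src-family kinase Lyn (LynBKO) were compared with macrophages that lacked Lyn altogether (LynKO), after 2 h with either of 2 Toll-like receptor ligands. The comparison used 16 of the 48 libraries of the study, 8 LynBKO and 8 LynKO, chosen by their genotype and treatment labels. These came from 8 of its 16 mice, 4 of each genotype, and each mouse gave 1 library with LPS and 1 with R848. The other libraries were wild-type (WT) and LynAKO cells, and untreated cells (NT) of all genotypes. All were macrophages grown from bone marrow with M-CSF, then rested overnight without it. LPS from S. Minnesota R595 was given at 2 ng/mL and R848 (resiquimod) at 20 ng/mL. Each genotype had 2 male and 2 female mice, and the labels used here give no age or strain.

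Lyn is a kinase of myeloid and B cells that acts downstream of Fc receptors, integrins and lectin receptors. It can start signalling through activating motifs, and it also phosphorylates the inhibitory motifs of receptors that recruit phosphatases. Its transcript is spliced into a longer form, LynA, and a shorter form, LynB, so the comparison asked how cells with only LynA differ from cells with neither form. LPS is sensed by Tlr4 at the cell surface and R848 by Tlr7 in endosomes, and both lead to NF-kB and MAP kinase signalling and cytokine transcription.

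The 16 libraries held 15173327 to 23057692 counts, and the range was similar in both genotypes. The macrophage markers Adgre1, Csf1r and Cd68 were abundant in each, with mean levels in LynBKO and LynKO of 1896 and 1924 CPM for Adgre1. CPM here is the count of a gene scaled to library size by TMM (trimmed mean of M values). The libraries of the 4th LynKO mouse stood apart on the second principal component, with scores of 31.2 and 41.0 against -28.2 to 12.0 in the others. The 20 most abundant genes of a library held 12.6% to 13.8% of its counts in LynBKO and 11.9% to 12.4% in LynKO, with no overlap. Of 13 mitochondrially encoded genes 12 lay below 0 (median log2 fold change -0.24), and limma called 2 of them lower and edgeR on mouse sums 0. The part of these differences in the results was not tested. Sex labels matched the reads of all 16.

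Lyn itself checked the labels. Its level was lowest 198.1, median 237.2 and highest 272.8 CPM in the 8 LynBKO libraries, and lowest 84.5, median 96.8 and highest 119.4 CPM in the 8 LynKO libraries. The groups did not overlap, and the level in WT with ligand was above both, at 317.6 to 397.6 CPM. Lyn was higher in LynBKO by 1.27 ± 0.067 (log2 fold change ± SE), with an adjusted p of 1.01e-10 by limma with the mouse as a block and 1.47e-05 by edgeR on counts summed per mouse. Gene counts do not separate LynA from LynB, and where the remaining reads in LynKO fall on the gene was not tested.

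Across 12680 genes, limma with ligand as a covariate and the mouse as a block called 1124 genes (8.86%) at an adjusted p under 0.05, 638 (5.03%) higher and 486 (3.83%) lower in LynBKO. On the mouse sums edgeR called 468 genes (3.5%), 207 (1.55%) higher and 261 (1.95%) lower. The limma model gives every gene the same correlation within a mouse. On simulated data in which mouse effects differed between genes, it made more false calls than its threshold allows, while edgeR on the sums of 4 against 4 mice held close to it. A gene is therefore said to differ below only where both tests called it in the same direction, a rule adopted after that simulation. This left 449 of 12675 genes (3.54%), of which 203 (1.6%) were higher and 246 (1.94%) lower in LynBKO. Their median absolute log2 fold change was 0.51, against 0.29 for the 675 genes called by limma alone.

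Of the 449 genes, 73 differed by at least 1 on the log2 scale, 23 higher and 50 lower in LynBKO. The 8 libraries of each genotype did not overlap at all for 139 of them, where 187 (1.47%) of all tested genes showed no overlap, 0.726% with LynBKO above and 0.749% with LynBKO below. With the replicate number as a further block in limma, 2318 genes were called. Without the 1st LynBKO mouse limma called 447 genes, without the 2nd 588 and without the 4th 724.

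**Figure D1:**
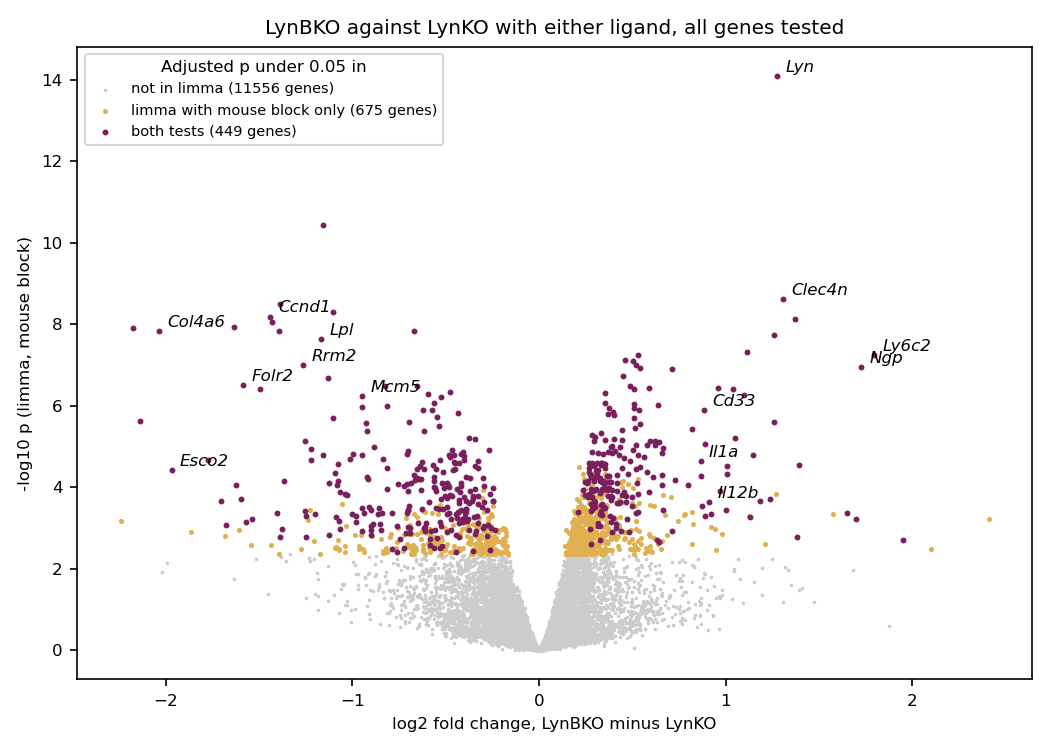
Log2 fold change of LynBKO minus LynKO with either ligand (x axis) against -log10 p by limma with the mouse as a block (y axis), 1 point per gene of 12680. The 449 genes called by both tests are dark and the 675 called by limma alone are yellow, and the latter lie mostly at small fold changes.

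Genes of cell division were lower in LynBKO than in LynKO. Of 59 tested genes of G1/S transition and DNA replication, 22 were lower by both tests and none was higher, with a median log2 fold change of -0.51 against 0 over all genes tested. Limma called 27 of them lower, these 22 included, and 18 to 27 with 1 mouse left out, lowest without the 1st LynBKO mouse. Their summed level was 585.5 to 724.9 CPM in LynBKO and 860.3 to 1083 CPM in LynKO, with no overlap.

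The promoters of 5 genes described here are shown because replication and mitosis genes are known to be controlled through E2F sites and the cell cycle homology region (CHR). Each is the 300 bases from 250 before to 50 after the start in RefSeq, build GRCm38.p6. They are Mcm5 (chr8:75109259-75109558, plus strand), Mcm6 (chr1:128359656-128359955, minus strand), Rrm2 (chr12:24708004-24708303, plus strand), Cdk1 (chr10:69352863-69353162, minus strand) and Kif15 (chr9:122950831-122951130, plus strand). Capitals mark matches to TTTNNCGC (E2F) and TTTGAA (CHR) on either strand, and matches that touch or overlap form 1 run. The promoter of Rrm2 held neither.
Mcm5: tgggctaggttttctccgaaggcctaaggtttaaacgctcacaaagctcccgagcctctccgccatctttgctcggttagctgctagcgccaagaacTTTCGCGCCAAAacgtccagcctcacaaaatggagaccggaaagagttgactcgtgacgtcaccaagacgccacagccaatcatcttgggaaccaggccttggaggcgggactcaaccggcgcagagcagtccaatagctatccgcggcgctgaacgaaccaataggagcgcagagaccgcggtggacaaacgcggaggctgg
Mcm6: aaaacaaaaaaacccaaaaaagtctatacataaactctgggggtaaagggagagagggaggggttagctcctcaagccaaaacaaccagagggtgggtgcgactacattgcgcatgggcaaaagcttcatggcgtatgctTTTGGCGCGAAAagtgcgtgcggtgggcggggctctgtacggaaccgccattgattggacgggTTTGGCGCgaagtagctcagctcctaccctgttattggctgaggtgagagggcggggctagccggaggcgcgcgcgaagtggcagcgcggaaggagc
Rrm2: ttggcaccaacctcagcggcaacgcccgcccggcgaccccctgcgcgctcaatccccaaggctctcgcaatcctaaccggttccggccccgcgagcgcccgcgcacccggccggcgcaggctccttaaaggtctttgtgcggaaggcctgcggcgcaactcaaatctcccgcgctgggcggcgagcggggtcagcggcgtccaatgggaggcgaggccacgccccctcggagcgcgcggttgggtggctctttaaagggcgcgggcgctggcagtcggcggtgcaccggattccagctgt
Cdk1: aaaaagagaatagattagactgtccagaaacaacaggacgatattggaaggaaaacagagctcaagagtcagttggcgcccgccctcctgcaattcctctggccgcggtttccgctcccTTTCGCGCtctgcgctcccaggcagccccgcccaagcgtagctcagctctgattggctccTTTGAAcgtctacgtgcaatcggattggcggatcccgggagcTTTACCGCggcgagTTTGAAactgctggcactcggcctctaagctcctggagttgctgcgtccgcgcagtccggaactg
Kif15: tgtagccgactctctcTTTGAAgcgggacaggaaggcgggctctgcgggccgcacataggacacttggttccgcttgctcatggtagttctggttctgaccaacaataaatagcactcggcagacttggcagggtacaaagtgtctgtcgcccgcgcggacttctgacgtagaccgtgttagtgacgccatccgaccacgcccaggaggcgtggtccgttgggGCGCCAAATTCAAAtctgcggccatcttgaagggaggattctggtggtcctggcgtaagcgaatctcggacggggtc

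The E2F letters were found in 9 of the 20 matched promoters of the replication genes that limma called lower (45%), in 8.91% of the 9401 promoters of tested genes and in 5.27% of 27025 promoters of all genes. The CHR letters were found in 18 of the 26 matched promoters of the mitosis genes that limma called lower (69.2%), in 12% of those of tested genes and in 18.1% of all promoters. A match describes these letters in this window and shows no binding. Members that were not called lower were not counted, so these shares do not set the lower genes apart from their lists.

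Ccnd1 encodes cyclin D1, which drives entry into the cycle in response to growth factors. Its level was lowest 6.44, median 8.38 and highest 13.3 CPM in LynBKO, and lowest 18.2, median 23.1 and highest 30.5 CPM in LynKO. All LynBKO libraries lay below all LynKO libraries, a log2 fold change of -1.44 ± 0.152 (limma adjusted p = 1.32e-05, edgeR on mouse sums adjusted p = 0.00451). Cdkn1b, which encodes the cyclin-dependent kinase inhibitor p27, moved the other way, by 0.35 ± 0.074 (adjusted p = 0.00543 by limma and 0.0482 by edgeR on mouse sums).

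Mcm5, a subunit of the replicative helicase, was at 9.16, 11.7 and 13.4 CPM (lowest, median, highest) in LynBKO and at 15.7, 21.6 and 29.0 CPM in LynKO. The groups did not overlap, and the log2 fold change was -0.95 ± 0.134 (adjusted p = 0.000178 by limma and 0.00692 by edgeR on mouse sums). Mcm6, another subunit of that helicase, differed by -0.81 ± 0.116, also without overlap. Rrm2, a subunit of ribonucleotide reductase, was at 2.71, 3.82 and 6.34 CPM in LynBKO and at 7.04, 9.30 and 11.4 CPM in LynKO. It differed by -1.26 ± 0.16 (adjusted p = 5.74e-05 by limma and 0.00692 by edgeR on mouse sums).

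Of 75 tested genes of G2/M and mitosis, 16 were lower by both tests and none higher, with a median of -0.56. Limma called 35 lower, these 16 included, then 7 without the 1st LynBKO mouse and 55 without the 4th LynKO mouse. Without the 2nd or 4th LynBKO or the 1st or 2nd LynKO mouse limma called 14 to 21. The 1 gene limma called higher was Hmgb2, which encodes a chromatin protein (0.31 ± 0.066), with an adjusted p of 0.0553 by edgeR on mouse sums. The summed level of these genes overlapped, at 1029 to 1282 CPM in LynBKO and 1012 to 1506 CPM in LynKO.

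Kif15, a mitotic kinesin, differed by -1.11 ± 0.171 (adjusted p = 0.000413 by limma and 0.0126 by edgeR on mouse sums). Pbk, a mitotic kinase, differed by -1.25 ± 0.213, and both genes showed no overlap. Esco2, which acetylates cohesin in S phase, had the largest difference of the group at -1.97 ± 0.379, at a low level of 0.14 to 0.753 CPM in LynBKO and 0.828 to 2.54 CPM in LynKO. Ccna2 (cyclin A2) differed by -0.66 ± 0.134 and Cdk1 by -0.59 ± 0.133, with overlapping groups. Top2a, a topoisomerase of dividing cells, had -0.57 ± 0.134 and passed limma (adjusted p = 0.0127) but not edgeR on mouse sums (0.0709). Mki67, a common marker of cycling cells, had 0.20 ± 0.185 and passed neither (limma adjusted p = 0.557). In bulk RNA, fewer cells of a kind and less RNA per cell cannot be told apart.

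**Figure D2:**
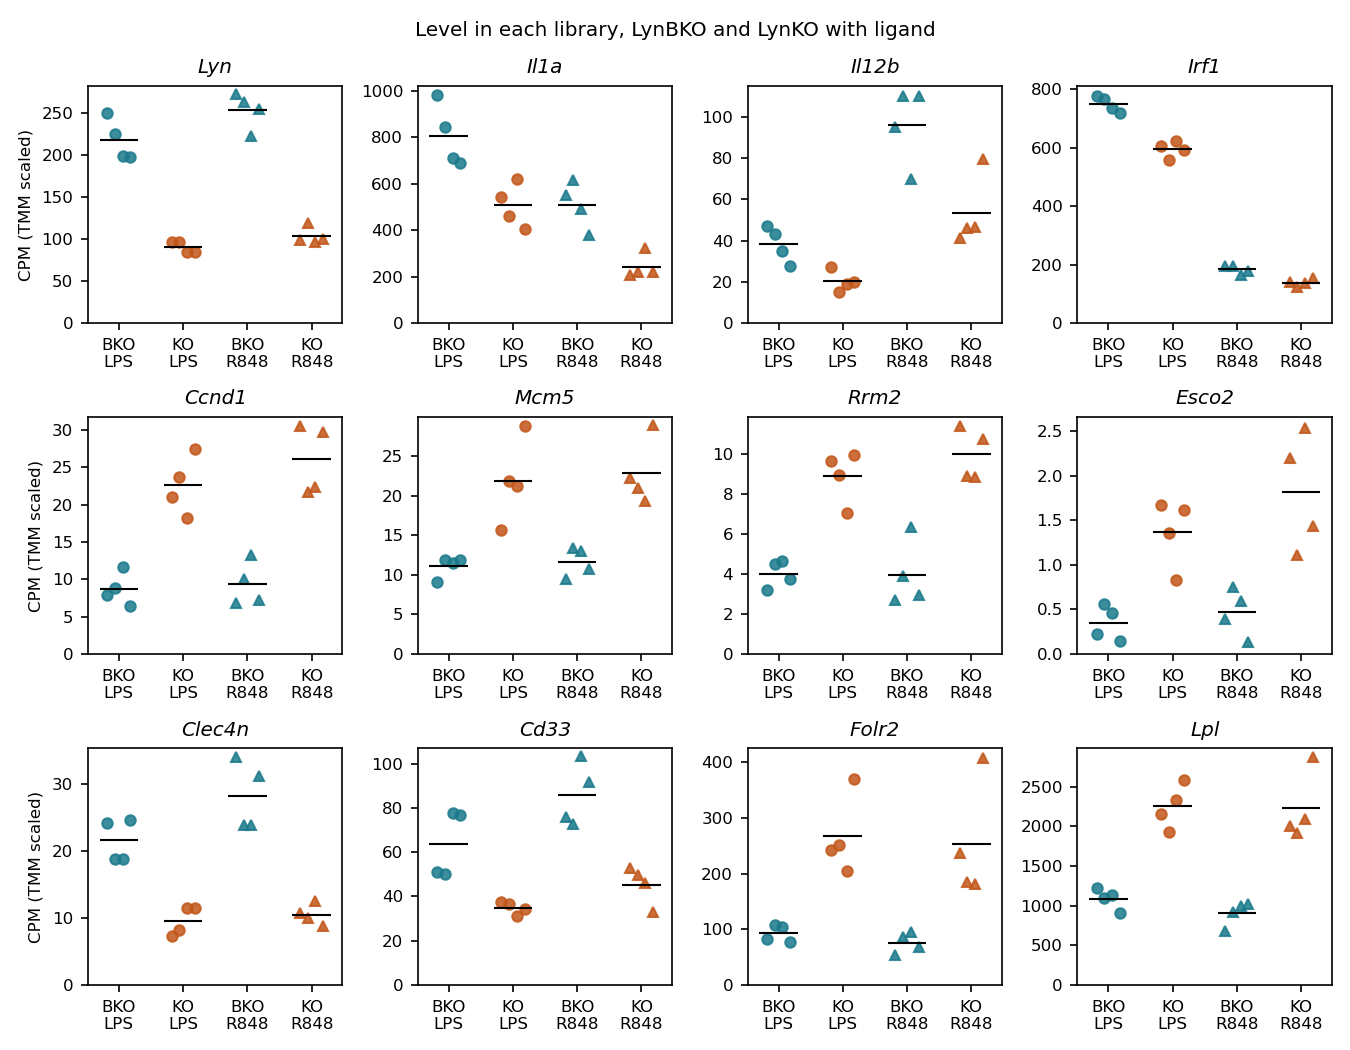
Level in CPM (y axis, from 0) of 12 genes in each of the 16 libraries, by genotype and ligand (x axis, BKO for LynBKO and KO for LynKO), 4 points per group with the mean as a line. The LynBKO points of Lyn and Clec4n lie above, and those of Ccnd1, Mcm5, Rrm2, Folr2 and Lpl below, every LynKO point.

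Inflammatory cytokine genes were higher in LynBKO. Of 23 tested, 5 were higher by both tests (Il1a, Il1b, Il12b, Tnfsf9 and Inhba) and none lower, with a median log2 fold change of 0.49. Limma called 7 higher, these 5 included, and 21 of the 23 lay above 0. The summed level of the list with LPS was 7662 to 10970 CPM in LynBKO and 5853 to 7388 CPM in LynKO, and with R848 it was 6939 to 8619 and 4630 to 6138 CPM.

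Il1a encodes interleukin-1 alpha. Its level was lowest 377.2, median 651.8 and highest 980.9 CPM in LynBKO, and lowest 208.1, median 363.6 and highest 618.3 CPM in LynKO. The groups overlapped over the 2 ligands together, and the log2 fold change was 0.87 ± 0.147 (adjusted p = 0.00217 by limma and 0.0147 by edgeR on mouse sums). Il12b, the shared subunit of interleukins 12 and 23, was at 27.6, 58.5 and 110.2 CPM in LynBKO and at 14.9, 34.1 and 79.8 CPM in LynKO. It differed by 0.91 ± 0.192 (adjusted p = 0.00879 by limma and 0.0301 by edgeR on mouse sums). Tnfsf9, the ligand of the costimulatory receptor 4-1BB, differed by 0.52 ± 0.088.

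Il1b had 0.52 ± 0.119 and an adjusted p of 0.0129 by limma, which became 0.059 without the 1st and 0.051 without the 2nd LynBKO mouse. Tnf had 0.49 ± 0.125 and passed limma (adjusted p = 0.0226) but not edgeR on mouse sums (0.0629). Tnfsf15 was alike, at 1.27 ± 0.263 with an edgeR adjusted p of 0.0677. Il6 had 0.83 ± 0.276 and passed neither test (limma adjusted p = 0.0775), though limma with the replicate block gave 0.0366. Il10, an anti-inflammatory cytokine, had -0.25 ± 0.178 (limma adjusted p = 0.429).

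Among 20 chemokine genes, Ccl22 alone passed both tests, and it was lower in LynBKO at -0.63 ± 0.145 (adjusted p = 0.0113 by limma and 0.0126 by edgeR on mouse sums). Cxcl2 (0.41 ± 0.151), Cxcl10 (0.35 ± 0.132) and Ccl5 (0.31 ± 0.166) did not pass limma over both ligands, with adjusted p of 0.111, 0.107 and 0.285. With R848 alone Cxcl10 was called, at 0.65 (edgeR adjusted p = 0.0164). With the replicate block limma gave 0.03 for Cxcl10 and called 5 chemokine genes in place of 2, namely 4 higher and 1 lower. Of 60 interferon-stimulated genes 2 were higher by both tests: Irf1, a transcription factor, at 0.37 ± 0.056, and Gbp5, a guanylate-binding protein, at 0.39 ± 0.082. Limma called 4, these 2 included, then 12 with the replicate block, 12 without the 1st LynKO mouse, and 2 or 3 without any other single mouse. Ifnb1 was near the limit of detection, at 0 to 1.81 CPM across the 16 libraries.

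Signalling genes of the receptors showed few differences by both tests. Of 28 Toll-like receptor, adaptor and IRAK genes, Irak2, a kinase downstream of the receptors, was higher (0.33 ± 0.067), and Cd180, a receptor-like protein that restrains Tlr4, was lower (-0.48 ± 0.086). Tlr4 had 0.15 ± 0.145 (limma adjusted p = 0.582). Tlr7 had 0.59 ± 0.154, with an adjusted p of 0.0263 by limma and 0.128 by edgeR on mouse sums. Tlr7 and Tlr4 were added because they sense the ligands used, after their values were seen.

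Of 30 genes of NF-kB subunits and feedback, 2 were higher by both tests, among them Nfkbiz (0.34 ± 0.077). Limma called 7 higher, these 2 included, and limma with the replicate block 11. With 1 mouse left out limma called 2 (without the 1st LynBKO or the 2nd LynKO mouse) to 10 (without the 4th LynKO mouse) of the list. Without the 1st LynBKO mouse the adjusted p of Nfkbiz was 0.0569. Nfkbia, which encodes the inhibitor IkB alpha, had 0.16 ± 0.067 (limma adjusted p = 0.15, and 0.0436 with the replicate block). Pim1, a kinase induced by cytokines, was higher by 0.46 ± 0.058 (adjusted p = 4.91e-05 by limma and 0.00841 by edgeR on mouse sums). Socs3, a feedback inhibitor of cytokine receptors, had 0.16 ± 0.053 (limma adjusted p = 0.0556, and 0.0174 with the replicate block). Of 26 immediate early transcription factors 20 lay above 0, and limma called 8 higher and 2 lower. By both tests Klf2 was higher (0.53 ± 0.095) and Fos lower (-0.84 ± 0.188). With 1 mouse left out limma called 2 (without the 1st LynBKO, 1st LynKO or 3rd LynKO mouse) to 9 of them higher.

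Receptors of the families that signal through Src kinases differed in both classes. Of 29 activating receptors and adaptors, 4 were higher (Treml4, Clec4d, Clec4n and Clec5a) and 1 lower (Slamf9) by both tests. Limma called 10 higher, these 4 included, and 6 (without the 1st or the 2nd LynBKO mouse) to 11 with 1 mouse left out. Clec4n encodes dectin-2, a receptor for fungal mannans that signals through an ITAM adaptor. Its level was lowest 18.7, median 24 and highest 34.0 CPM in LynBKO, and lowest 7.28, median 10.4 and highest 12.5 CPM in LynKO. No library overlapped, and the log2 fold change was 1.31 ± 0.133 (adjusted p = 9.99e-06 by limma and 0.001 by edgeR on mouse sums). Clec5a, which also couples to an ITAM adaptor, differed by 0.54 ± 0.07 without overlap.

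Of 27 inhibitory receptors 3 were higher (Cd33, Clec4a3 and Pilra) and 1 lower (Cd72) by both tests. Limma called 7 higher, these 3 included, and 3 (without the 1st LynBKO or the 1st LynKO mouse) to 7 with 1 mouse left out. Cd33, a sialic acid-binding receptor with inhibitory motifs, was at 50.2, 76.3 and 103.4 CPM in LynBKO and at 31.3, 37.1 and 52.7 CPM in LynKO. It differed by 0.88 ± 0.126 (adjusted p = 0.000304 by limma and 0.0102 by edgeR on mouse sums). Pilra differed by 1.15 ± 0.193 and Cd72 by -0.44 ± 0.066, each without overlap. Fcgr2b, the inhibitory Fc receptor, had 0.36 ± 0.115 (limma adjusted p = 0.0617, and 0.0237 with the replicate block). Of the Src-family kinases and their regulators Lyn alone of 27 genes passed both tests, while limma called 7, then 12 with the replicate block and 2 (without the 1st LynBKO mouse) to 8 with 1 mouse left out. The related kinase Fgr (-0.19 ± 0.093) passed neither.

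Some lipid and scavenger genes were lower in LynBKO, while the lists as a whole were balanced. Of 28 LXR targets and lipid handling genes 5 were lower by both tests (Nr1h3, Lpl, Pltp, Cd36 and Pparg) and none higher, with 14 of the 28 above 0 and 14 below. Limma called 1 higher and 5 lower, and 5 higher and 6 lower with the replicate block. Lpl, which encodes lipoprotein lipase, was at 685.9, 1010 and 1226 CPM in LynBKO and at 1921, 2129 and 2877 CPM in LynKO. The groups did not overlap, and the difference was -1.17 ± 0.12 (adjusted p = 1.97e-05 by limma and 0.00025 by edgeR on mouse sums). Nr1h3, the LXR alpha receptor, differed by -0.48 ± 0.101 and the nuclear receptor Pparg by -0.55 ± 0.117.

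Of 24 scavenger, phagocytic and efferocytosis genes 2 were higher (Gas6 and Stab1) and 3 lower (Cd36, Cd5l and Folr2) by both tests, with a median of -0.03. Folr2, a folate receptor of resident macrophages, was at 53.7, 84.5 and 107.8 CPM in LynBKO and at 180.7, 240.3 and 408 CPM in LynKO. The groups did not overlap, and the difference was -1.59 ± 0.187 (adjusted p = 0.000136 by limma and 0.00854 by edgeR on mouse sums). Cd5l, a secreted macrophage protein, differed by -1.39 ± 0.133 and the scavenger receptor Cd36 by -0.82 ± 0.107, both without overlap. Gas6, a bridging molecule in the uptake of dying cells, was higher, by 0.40 ± 0.06. Csf1r, the M-CSF receptor, had 0.23 ± 0.06 and passed limma (adjusted p = 0.0213) but not edgeR on mouse sums (0.117).

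Stress and metabolic genes were tested next. Of 30 NRF2 targets 4 were higher by both tests and none lower, among them Slc7a11, the cystine transporter, at 1.10 ± 0.139 without overlap, and Gsr, glutathione reductase, at 0.51 ± 0.076. Limma called 10 of the list higher, these 4 included, and 4 (without the 1st LynBKO mouse) to 11 with 1 mouse left out. Of 32 genes of the unfolded protein and integrated stress responses 5 were higher and 2 lower, with Xbp1 at 0.43 ± 0.078 and Ppp1r15a at 0.64 ± 0.107. Slc40a1, the iron exporter ferroportin, was higher by 1.26 ± 0.144. Of 44 lysosomal genes limma called 18 higher, but 2 of these (Psap and Tfec) passed both tests. With 1 mouse left out limma called 5 (without the 1st LynBKO mouse) to 15 of them higher. Of 33 ribosome biogenesis genes limma called 8 lower, 19 with the replicate block, and 1 (without the 2nd LynBKO mouse) to 11 (without the 2nd LynKO mouse) with 1 mouse left out, and 2 (Dkc1 and Wdr12) passed both tests. None of 34 oxidative phosphorylation genes was called by limma or by edgeR on mouse sums.

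**Figure D3:**
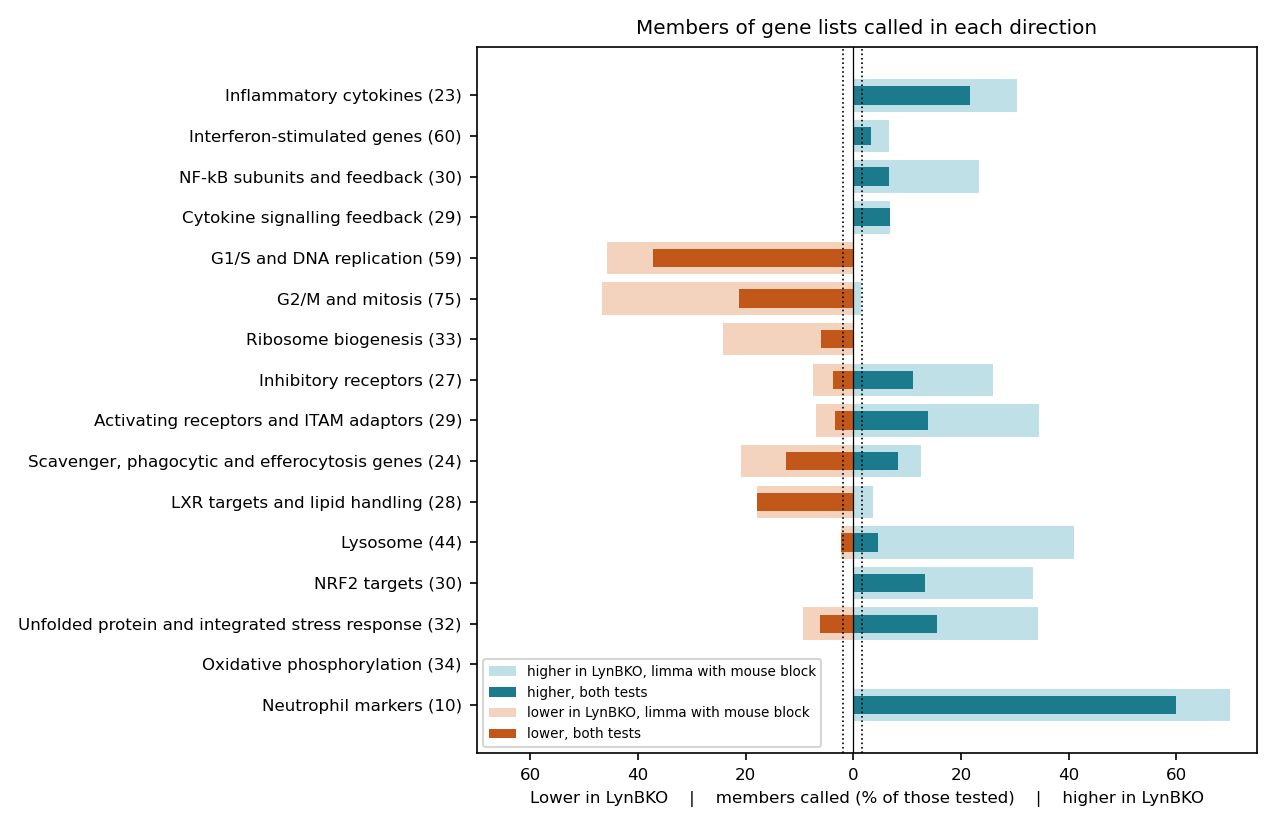
Share of the tested members of 16 gene lists (number tested in brackets) called higher (right) or lower (left) in LynBKO. Pale bars are calls by limma with the mouse as a block, dark bars calls by both tests, and dotted lines the share of all genes called by both tests, 1.6% higher and 1.94% lower. The replication and mitosis lists extend to the left, the cytokine list to the right, and most of the lysosome bar is pale.

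Several genes known from neutrophils were higher in LynBKO at low levels. Of 13 neutrophil markers 10 could be tested, and 6 were higher by both tests (S100a8, S100a9, Camp, Ltf, Ngp and Mmp8). S100a9 was at 5.26, 6.63 and 7.93 CPM in LynBKO and at 1.5, 2.70 and 4.23 CPM in LynKO, a difference of 1.26 ± 0.198 without overlap. Ly6g, which defines neutrophils, was at 0 to 0.0579 CPM in LynBKO and at 0 in every LynKO library, and Cxcr2 was at 0 to 0.443 and 0 to 0.309 CPM. The summed level of the list was 220.5 to 325.1 CPM in LynBKO and 150.3 to 225.3 CPM in LynKO. Its largest members were Csf3r, with means of 135.2 and 113.3 CPM, and Lcn2, with 60.3 and 46.0 CPM. Neither passed both tests, so the sum mostly describes other genes than the 6 named. Of 9 tested monocyte and progenitor markers Ly6c2 alone passed both tests. Ly6c2, a monocyte marker, was higher by 1.80 ± 0.22 (adjusted p = 4.04e-05 by limma and 0.00663 by edgeR on mouse sums). The early granule genes Mpo, Elane, Prtn3 and Ctsg had means of at most 0.155 CPM in LynBKO and 0.122 CPM in LynKO. The part of less mature cells in the other differences was not tested.

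Of 33 genes of integrins, matrix and proteases 4 were higher and 4 lower by both tests, and limma called 12, then 20 with the replicate block. Col4a6, which encodes a chain of basement membrane collagen, was lower by both tests without overlap (-2.04 ± 0.227). Col4a5, which lies beside Col4a6 and encodes a related chain, was at 18.9, 23.7 and 31.8 CPM in LynBKO and at 49.2, 54.5 and 57.1 CPM in LynKO. Its difference was -1.16 ± 0.094 (adjusted p = 2.32e-07 by limma and 0.001 by edgeR on mouse sums). Mmp12, macrophage elastase, was higher by 1.12 ± 0.124. Outside the lists, Fgf13 (-2.17 ± 0.244) and Serpinb6b (-1.63 ± 0.179) were lower in LynBKO without overlap. Of 36 tested genes within 10 Mb of Lyn, Asph and Ccne2 were lower by both tests and none was higher, and linkage to the edited locus was not tested for them.

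WT cells, which were in neither group, gave a reference for the direction. The mean of WT with ligand was closer to LynBKO than to LynKO for 1088 of the 1124 genes called by limma (96.8%) and for 71.6% of the 11556 genes not called. This reuses the LynBKO and LynKO libraries that chose the genes and is a description. Ccnd1 was at a mean of 8.05 CPM in WT and Il1a at 644.6 CPM, both near LynBKO. Of 1331 tested genes that both ligands raised in WT, limma called 235 higher (17.7%, against 5.03% of all genes) and 31 lower (2.33%, against 3.83%), with a median of 0.15. On mouse sums edgeR tested 1336 of them and called 99 higher and 15 lower, where 1.55% and 1.95% of all genes were called. In untreated cells edgeR tested 1056 of them and called 127 higher and 55 lower, where 3.18% and 3.72% of all genes were called. For the change between untreated and treated cells limma called 5 of the list more positive with ligand and 3 more negative. The excess of higher genes was thus also present without ligand.

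Each ligand was then taken alone, with 4 against 4 mice. With LPS edgeR called 193 of 12194 genes (1.58%), 84 (0.689%) higher and 109 (0.894%) lower in LynBKO. With R848 it called 204 of 12117 (1.68%), 102 (0.842%) in each direction, and 85 genes were called with both in the same direction. Of the replication genes 10 were lower with LPS and 14 with R848, and none was higher. Of the inflammatory cytokine genes 0 of 24 were called with LPS, and 3 of 23 were higher with R848. Their median log2 fold changes were 0.40 and 0.39. Il1a had 0.65 with LPS (edgeR adjusted p = 0.0576) and 1.07 with R848 (0.0118). With the replicate block edgeR called 631 genes with LPS and 799 with R848. Leaving out the 4th LynBKO mouse left 32 genes with LPS, and leaving out the 1st left 33 with R848.

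The difference between these 2 ligand effects was tested directly. Limma called 0 of 12680 genes (0%), with 550 genes at an unadjusted p under 0.05, and edgeR with the mouse as a fixed factor also called 0, with 517. A smallest adjusted p of 0.964 does not show that the ligands act alike.

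**Figure D4:**
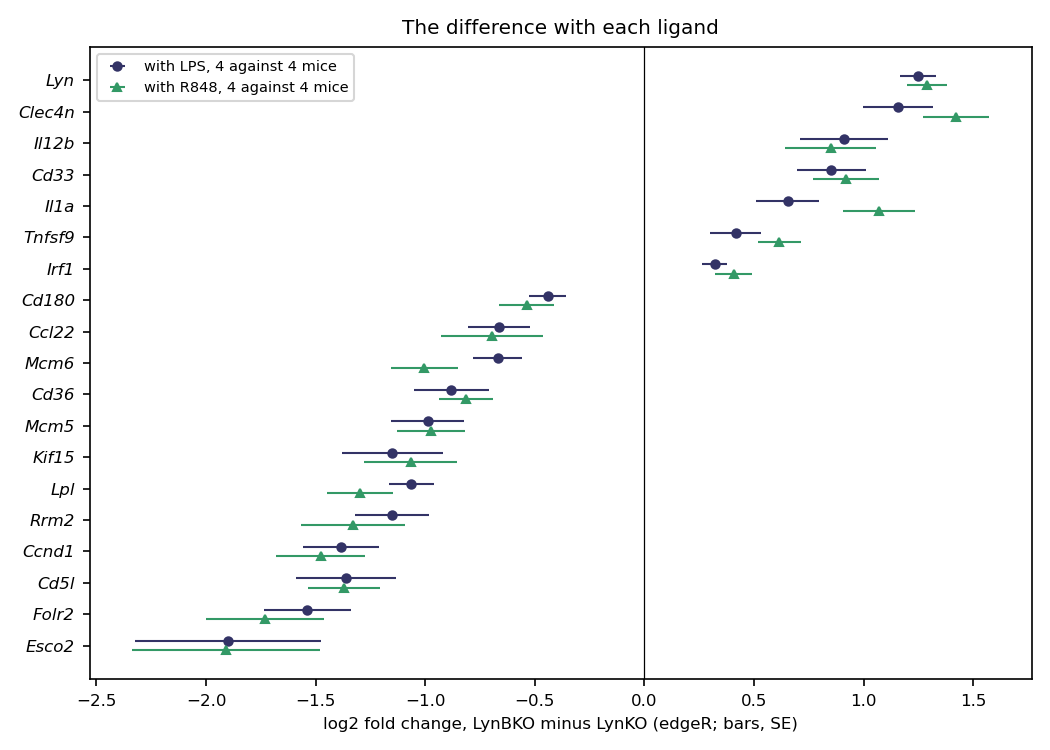
Log2 fold change of LynBKO minus LynKO by edgeR (x axis, bars are SE) for 19 genes (y axis), with LPS (circles) and with R848 (triangles), 4 against 4 mice each. Every gene shown has the same sign with both ligands.

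Finally, the difference with ligand was set against that in untreated cells. Limma called 19 of 13456 genes (0.141%), 9 (0.0669%) more positive and 10 (0.0743%) more negative with ligand. Clic4, an intracellular chloride channel protein, was lower in untreated LynBKO (-0.60) and had 0.12 with ligand, a change of 0.69 ± 0.088 (limma adjusted p = 0.000247). In this fit the replicate number joins untreated and treated libraries as 1 mouse. By labels and reads LynBKO NT 2 is female and NT 3 male, while the treated libraries of those numbers are the other sex, so these libraries were joined across mice. With the untreated libraries as separate mice 5 genes were called, all more positive with ligand, and without NT 2 and NT 3 of LynBKO 12. Without the 2 untreated libraries numbered 4, which are labelled female but held both Xist and Y-linked reads, 1 gene was called. In untreated cells edgeR called 874 of 12672 genes (6.9%), 403 (3.18%) higher and 471 (3.72%) lower in LynBKO. Of the 449 genes called by both tests with ligand, 437 were tested in untreated cells, and 232 of these were called there in the same direction and 0 in the opposite one. The libraries differ but carry the same replicate numbers and may come from the same mice, apart from the mismatch of sex given above. Ccnd1 had -1.25 (edgeR adjusted p = 9.15e-05), Folr2 -1.54 (0.00511) and Clec4n 1.24 (2.72e-06). Of 60 replication genes 29 were lower in untreated LynBKO by edgeR and none higher. Il1a had 0.72 without ligand (edgeR adjusted p = 0.582) and Pim1 0.25 (0.106), and neither was called in the test of the change.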

How the data were processed

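Per the labels, polyA RNA was sequenced as paired reads. The tools named, per the submitters' processing notes, were STAR 2.5.2b, Trimmomatic 0.36, Subread 1.5.2 with featureCounts, and DESeq2, and the build was GRCm38. No source used here names the annotation release or strand setting, so overlapping and antisense genes are uncertain. The authors deposited raw counts per gene, which were used for every test. Of 49315 genes, 49056 matched GENCODE M21. A second deposited table, of log2 values, was not used.

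Genes passed filterByExpr (minimum count 10, total 15). The main test was voomLmFit of edgeR 4.0.16 with limma 3.58.1 in R 4.3.3, with ligand as a covariate and the mouse as a block (correlation 0.291), and Benjamini-Hochberg adjustment with a threshold of 0.05. On simulated data with 200 changed genes this fit kept its threshold when mouse effects were absent or equal for all genes, but made too many false calls when they differed between genes. EdgeR's quasi-likelihood test on mouse sums kept its threshold in each case. Mouse effects were drawn independently, without the shared deviation of same-numbered mice given below. Calls are therefore led by genes that both tests call, a rule added after this was seen. Single ligands and untreated cells were tested by edgeR.

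Members and lists (47 lists, 1151 genes) were chosen with earlier results of these data known. Named genes were Lyn, a fixed set, up to 12 each way with the largest change at a mean of at least 5 CPM, up to 4 per list, and for each difference of differences up to 5 each way or the 3 with the smallest p. Tlr4, Tlr7, Fgr, Cdk1, Hmgb2 and members named beside counts of 5 or fewer were named after their values were seen. Some genes the rule gives are not reported here.

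Same-numbered mice of the 2 genotypes deviated together, with correlations of 0.131 to 0.411 in the 8 pairs, each best with its own number. This pairing was taken from the data and entered only the alternative fits with the replicate block. The main test and edgeR on mouse sums left it out. Alternatives were DESeq2 1.42.0, RLE size factors, no filter, all 32 ligand libraries, sex, sample weights, the replicate block and each mouse left out. The replicates of a group are taken as separate mice per the labels, and the LPS and R848 libraries of 1 number as the same mouse. Promoters are from RefSeq.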

Additional observations from a re-analysis of the deposited data

Results flagged for a closer look

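In 27 of 480 groups of 4 libraries (5.62%) checked over the genes of the text, 1 library lay apart from the other 3 by Dixon's 95% limit for the gap over the range. Chance alone gives about 1 in 20 groups. The values of Ifnb1 and Pcdhgb7 below are near the limit of detection and rest on few reads. In LynKO with R848, mouse 3 stood apart for Il1a at 323.3 CPM (others 208.1 to 220.4). In LynKO with R848, mouse 4 stood apart for Il10 at 139 CPM (others 67.3 to 75.4), Il12b at 79.8 CPM (others 41 to 46.7), Socs3 at 1974 CPM (others 1636 to 1658), Ly6c2 at 1.75 CPM (others 2.84 to 2.99), Pilra at 14.3 CPM (others 18.8 to 19.2), Mcm6 at 76.1 CPM (others 55.1 to 56.3), Cfp at 98.5 CPM (others 130.4 to 136.9). In LynBKO with R848, mouse 2 stood apart for Ifnb1 at 0.232 CPM (others 0.132 to 0.14), Ccl22 at 10.02 CPM (others 6.28 to 6.87), Pparg at 22.2 CPM (others 14.5 to 15.2), Hmgb2 at 167.1 CPM (others 193.7 to 197). In LynBKO with LPS, mouse 1 stood apart for Socs3 at 2955 CPM (others 2651 to 2695), Mcm5 at 9.16 CPM (others 11.6 to 11.9), Fcgr2b at 659.4 CPM (others 477.8 to 504.9), Ccna2 at 6.79 CPM (others 11.7 to 12.4), Fpr1 at 49.7 CPM (others 26.1 to 27.6), Pcdhgb7 at 0.148 CPM (others 0.289 to 0.307). In LynBKO with R848, mouse 4 stood apart for Mki67 at 154.8 CPM (others 276.3 to 286.1), Tfrc at 22.6 CPM (others 29.3 to 30.5), Metrnl at 427.8 CPM (others 347.7 to 360). In LynKO with LPS, mouse 2 stood apart for Mki67 at 320.6 CPM (others 254.1 to 261.1). In LynBKO with R848, mouse 1 stood apart for Csf1r at 4770 CPM (others 4460 to 4479). In LynKO with LPS, mouse 4 stood apart for Pcp4l1 at 104.3 CPM (others 56.1 to 58.5), Il10ra at 255.9 CPM (others 230.6 to 234.7), Mcm6 at 86.3 CPM (others 65.8 to 66.9). In LynBKO with R848, mouse 3 stood apart for Brf2 at 6.54 CPM (others 5.56 to 5.66).

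The difference between LynBKO and LynKO changed between untreated and ligand-treated cells by limma at an adjusted p under 0.05 for these named genes, on the log2 scale. It was more positive with ligand for Rgs1 (0.89), Fnbp1l (0.72), Clic4 (0.69), Ell2 (0.67), Metrnl (0.66). It was more negative for Tnfaip2 (-0.48), Wdr12 (-0.65), Lig4 (-0.65), Nfatc2 (-0.71), Brf2 (-0.72), Entpd6 (-0.73). Without the 2 untreated libraries numbered 4, Clic4 was the only one of the 19 genes that was called. With the replicate block the adjusted p by limma was 0.0803 for Rgs1, 0.0664 for Entpd6, 0.0664 for Nfatc2 and 0.0709 for Lig4.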

How the results depend on the processing

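The count of 1124 genes for either ligand was 468 by edgeR on mouse sums and 449 by limma and that test together. It was 1917 by edgeR with no mouse term, 2318 with the replicate block, and 447 to 1081 with each mouse left out. DESeq2 on the mouse sums called 1084, of which 912 were shared with limma in direction. It called 13 lysosomal genes higher, against 2 by edgeR on the sums, and 36 mitosis genes lower, against 16. DESeq2 was not run on the simulated data. The count of 193 with LPS was 464 by DESeq2, 719 with no filter on low counts, 104 with the 16 libraries of 4 genotypes, 631 with the replicate block, and 32 to 178 with a mouse left out. The count of 204 with R848 was 666 by DESeq2, 707 with no filter, 799 with the replicate block, and 33 to 372 with a mouse left out. The 19 genes that changed between untreated and treated cells were 44 by edgeR with the mouse as a fixed factor, 7 with no filter, 1 without the 2 untreated libraries numbered 4, 12 without LynBKO NT 2 and NT 3, which are of another sex than the treated libraries of those numbers, 5 with untreated libraries as separate mice, and 1 to 20 with a mouse left out. The cause of these shifts was not tested. RLE size factors gave 714 higher and 453 lower. Of 120 genes checked, 98 passed limma and 81 of those passed under every alternative run. The sign turned only in genes that were not called: with a mouse left out Tlr4 ranged from -0.023 to 0.269, Fnbp1l from -0.059 to 0.014 and Ell2 from -0.068 to 0.043, and Ell2 had 0.003 with RLE size factors. With the replicate block limma also called Brf2 (adjusted p = 0.0176), Nfatc2 (0.0108) and Mgst3 (0.0433) for either ligand. Beside these and the calls given above, it changed no other call of the 120 genes. With 4 mice per genotype the precision is limited, and the limma fits may share the weakness seen on simulated data. Mouse effects were drawn independently there, while same-numbered mice here deviated together, so the share of false calls in these data is not known. A pass in limma alone is therefore treated as weak.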
